A study of Mus musculus with 12 samples.

Results

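The genes described here encode ligands of the epidermal growth factor (EGF) family, receptors of the ERBB family, and Errfi1 (also called Mig6), an inducible inhibitor that binds and silences the EGF receptor. The 9 members were Hbegf, Areg, Ereg, Tgfa and Nrg1 among the ligands, Egfr, Erbb2 and Erbb3 among the receptors, and Errfi1. They were taken by gene symbol from a count table of 55487 mouse Ensembl identifiers, and all 9 were found. Of these, 8 had enough reads to be tested, in a fit that held 12897 genes. Areg had too few.

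EGF family ligands are made as membrane-anchored precursors that metalloproteases such as ADAM17 cut free at the cell surface. Hbegf, Areg, Ereg and Tgfa act through EGFR, though not all of them through it alone. Neuregulins such as Nrg1 bind ERBB3 or ERBB4. ERBB2 has no known ligand of its own and pairs with the others. In the kidney tubule, EGFR signalling is known both for helping epithelium to regrow after acute injury and, when it persists, for feeding fibrosis.

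The cells, called im_TEC, are mouse kidney tubular epithelial cells with a conditional immortalising gene, compared as 4 groups of 3 libraries. Cells carried either a mock construct or a construct to express Nnmt, nicotinamide N-methyltransferase, under puromycin selection, and received either no cytokine or transforming growth factor β (TGFβ), 10 ng/mL for 48 h. All groups share the SV40 large T antigen that immortalises these cells, which were kept at 33 °C with interferon γ at 10 ng/mL and moved to 37 °C without it for 7 days before seeding. The growth medium of all groups held EGF itself at 20 ng/mL, beside serum, insulin, transferrin, selenite, thyroid hormone and hydrocortisone, and the labels do not say whether EGF was also present during the TGFβ treatment. The titles spell the construct Nnmt-OE and the genotype field spells it Nmt-OE. The age, sex and strain of the source animals, the promoter of the construct and the number of clones are not stated in the labels. Nothing in the labels says that the replicates were separate cultures, so the p-values speak of the scatter among these libraries, and that scatter may be technical.

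Reads assigned to genes ranged from 4733846 to 7247413 per library. Mock replicate 1, mock with TGFβ replicate 3 and labelled Nnmt-OE with TGFβ replicate 3 stood apart on the first 3 principal components. Several results below are also given without them. The tag of Nnmt did not separate the constructs: the mock group averaged 20.3 ± 3.8 CPM (tag counts scaled to a common library size with TMM factors) and the Nnmt group 25.3 ± 2.9 (edgeR adjusted p = 0.897), and 30.3 ± 2.8 and 27.6 ± 5.8 CPM with TGFβ (edgeR adjusted p = 0.998, SD, n = 3). These libraries sample each transcript close to its 3′ terminus, so RNA from a construct without the gene's own terminus could go uncounted. The name labelled Nnmt-OE is used below for this reason. Library codes of the construct and mock groups do not interleave, nor do those of TGFβ and untreated libraries within each, so handling cannot be told apart from construct or treatment. Of 15 tubular epithelial markers, those that passed the filter included Pax8, Pax2, Lrp2, Cdh16, Krt8 and Aqp1, while the epithelial genes Cdh1 and Epcam and the distal markers Umod and Aqp2 had no read in any library. The endothelial markers Pecam1, Cdh5, Kdr and Tek and the fibroblast markers Col3a1 and Lum had none either. Of the markers of other cell types, the fibroblast genes Col1a1 (1.03 to 13.5 CPM) and Col1a2 (0 to 6.02 CPM), the immune gene Cd68 (4.09 to 13.4 CPM) and the podocyte gene Podxl (68.4 to 88.2 CPM) passed the filter.

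The reference promoter windows of 3 members are shown because the results turn on them: Tgfa is the member that passed the test, Errfi1 had the smallest p between the constructs with TGFβ, and Areg is the ligand gene with next to no reads. Each window holds 250 bases before and 50 after a RefSeq start site on build GRCm38.p6, all on the plus strand, printed 5′ to 3′, with Errfi1 shown at the second of its 2 start sites in that table. The window at its first start site held no match to any motif searched. They lie at chr6:86194972-86195271 for Tgfa, chr4:150854820-150855119 for Errfi1 and chr5:91139349-91139648 for Areg. Capitals mark matches on either strand to a GC box (GGGCGG) or a cyclic AMP response element (TGACGTCA).
Tgfa: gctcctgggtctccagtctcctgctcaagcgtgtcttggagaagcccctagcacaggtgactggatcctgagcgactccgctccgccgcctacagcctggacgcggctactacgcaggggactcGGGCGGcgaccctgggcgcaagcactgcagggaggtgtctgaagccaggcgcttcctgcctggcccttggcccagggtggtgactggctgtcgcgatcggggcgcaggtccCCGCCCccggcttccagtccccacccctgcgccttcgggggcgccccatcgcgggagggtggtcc
Errfi1: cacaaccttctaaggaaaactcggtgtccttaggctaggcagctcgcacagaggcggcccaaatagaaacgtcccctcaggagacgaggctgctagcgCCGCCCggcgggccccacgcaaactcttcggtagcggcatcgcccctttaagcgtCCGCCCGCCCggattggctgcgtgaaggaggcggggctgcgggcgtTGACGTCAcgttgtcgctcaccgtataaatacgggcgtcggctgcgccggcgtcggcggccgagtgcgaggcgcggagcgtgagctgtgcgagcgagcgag
Areg: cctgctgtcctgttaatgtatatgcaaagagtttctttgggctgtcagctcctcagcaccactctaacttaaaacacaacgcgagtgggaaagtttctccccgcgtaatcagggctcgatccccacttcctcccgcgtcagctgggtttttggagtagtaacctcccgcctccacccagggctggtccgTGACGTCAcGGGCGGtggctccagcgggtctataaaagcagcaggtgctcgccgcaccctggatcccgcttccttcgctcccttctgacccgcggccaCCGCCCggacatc
The letters of a cyclic AMP response element were present at -51 from the second start site of Errfi1 and at -61 from that of Areg, and 1.79% of all 32851 windows hold those letters. Tgfa had none, and its 2 GC box matches are of a kind found in 35.7% of windows. No match was found in these 3 windows to the AP-1 site (TGANTCA, 7.81% of windows), the EGR site (GCGNGGGCG, 5.55%, which can overlap a GC box), the SMAD palindrome (GTCTAGAC, 0.213%) or the CArG box (1.63%). A match is a description of letters and not a binding site. 5 of the 9 members had a window in the table, and the windows of Egfr and Erbb2 held 1 and 0 matches to these motifs.

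**Figure D1:**
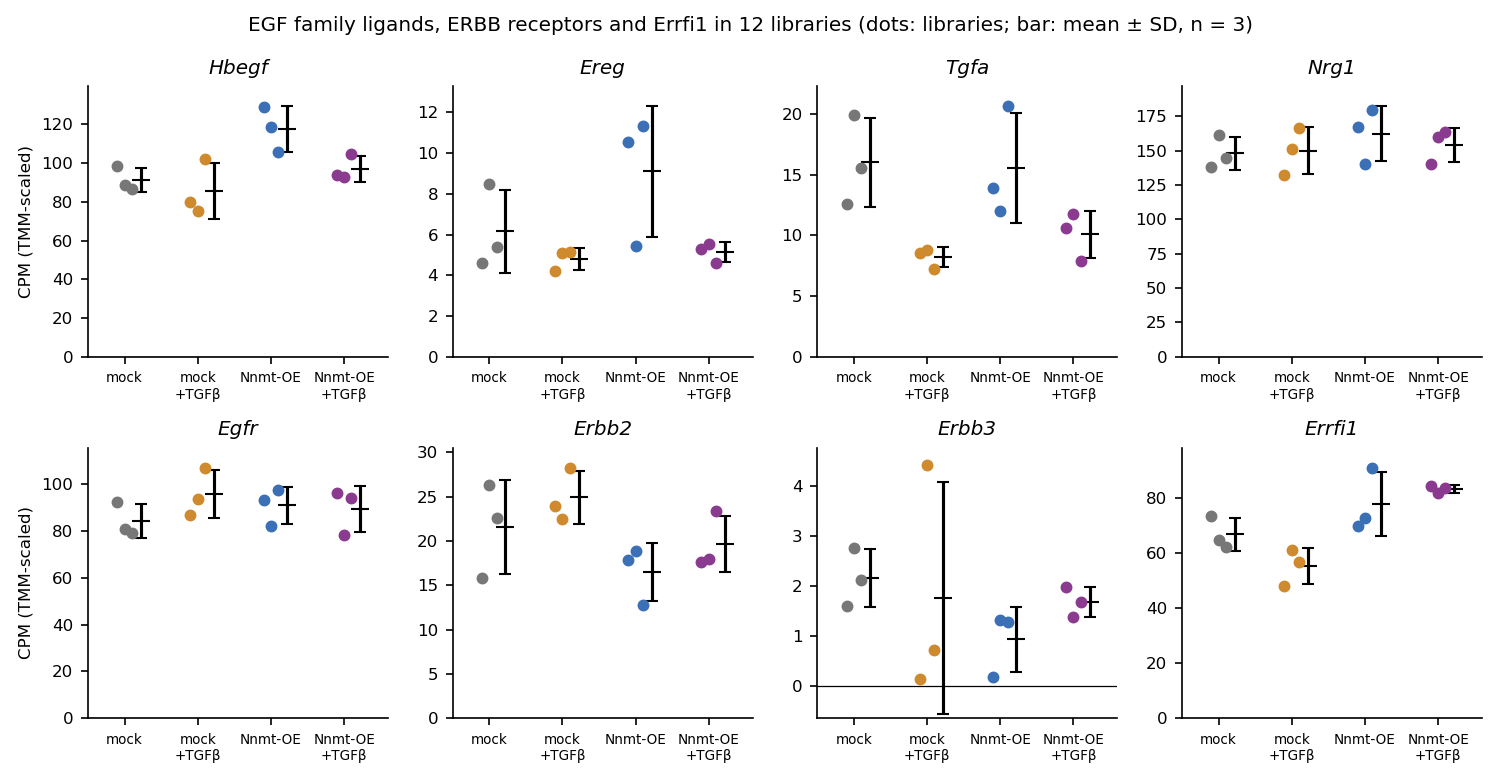
CPM (vertical axis, scaled by TMM) of the 8 tested members in the 4 groups, with a dot for each library and a bar for the mean ± SD (n = 3). Tgfa lies between 7.25 and 11.8 CPM in the 6 TGFβ libraries and between 12.03 and 20.7 CPM in the 6 untreated ones, while the Nrg1 and Egfr groups overlap.

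Tgfa, which encodes transforming growth factor α, an EGFR ligand made by epithelial cells, was the member that changed with TGFβ. In mock cells it measured 12.6, 19.9 and 15.5 CPM untreated and 8.55, 8.83 and 7.25 CPM with TGFβ. In labelled Nnmt-OE cells it measured 13.9, 12.03 and 20.7 CPM untreated and 10.6, 11.8 and 7.92 CPM with TGFβ. Every TGFβ library lay below every untreated one, although the nearest pair, 11.8 and 12.03 CPM, almost met. Groups of 6 against 6 stood apart like this in 3.11% of all genes. Averaged over both constructs, Tgfa fell 1.72-fold with TGFβ (log2 -0.78 ± 0.21 SE, 95% interval -1.22 to -0.35; edgeR quasi-likelihood F test, Benjamini-Hochberg adjusted p over all genes = 0.0213). The level of a gene in bulk RNA cannot tell fewer cells that express it from less RNA per cell.

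Within each construct, where 3 libraries meet 3, the Tgfa groups did not overlap but the test did not pass. The log2 fold change was -0.96 ± 0.30 (SE) in mock cells (edgeR adjusted p = 0.116) and -0.61 ± 0.30 in labelled Nnmt-OE cells (edgeR adjusted p = 0.45). Groups apart in the same direction in both constructs were found in 4.74% of genes. The difference between those effects was 0.34 (95% interval -0.52 to 1.21, edgeR adjusted p = 0.999), an interval wide enough to hold either no difference or a doubling. The construct itself gave Tgfa a log2 fold change of -0.04 without TGFβ and 0.30 with it, with edgeR adjusted p of 0.998 for each.

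The Tgfa call rested on few reads, 38 to 113 per library, and on some libraries more than others. It held in 9 of 12 fits that each left out 1 library, with log2 values from -0.86 to -0.66. It ended without mock replicate 2 (edgeR adjusted p = 0.0813), without labelled Nnmt-OE replicate 3 (0.113) or without labelled Nnmt-OE with TGFβ replicate 3 (0.0655), of which the first 2 are the untreated libraries with the highest Tgfa. Without the 3 libraries that stand apart it held (log2 -0.75, edgeR adjusted p = 0.0455). The summed level of the 15 tubular epithelial markers was lower with TGFβ as well, from 1701 to 2061 CPM over untreated libraries and from 1500.1 to 1695 CPM over TGFβ libraries, and its part in the Tgfa result was not tested. Aqp1 is the largest part of that sum, and the markers did not move as a class. Of the 7 tested, Aqp1 and Cdh16 fell and 4 did not pass. Krt8 rose (log2 0.38 ± 0.09 SE, edgeR adjusted p = 0.00766), and the median log2 fold change of the 7 was -0.07. The fibroblast markers summed to 1.61 to 8.04 CPM over untreated and 7.95 to 16.1 CPM over TGFβ libraries, and their part was not tested either. Of 7, the 2 tested, Col1a1 and Col1a2, rose (log2 1.34 ± 0.34 and 3.10 ± 0.88 SE, edgeR adjusted p = 0.0124 and 0.0284). Neither passed within a construct (edgeR adjusted p from 0.0898 to 0.42). Col1a2 was near the floor, with 103 reads in all libraries, 43 of them in mock with TGFβ replicate 1.

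**Figure D2:**
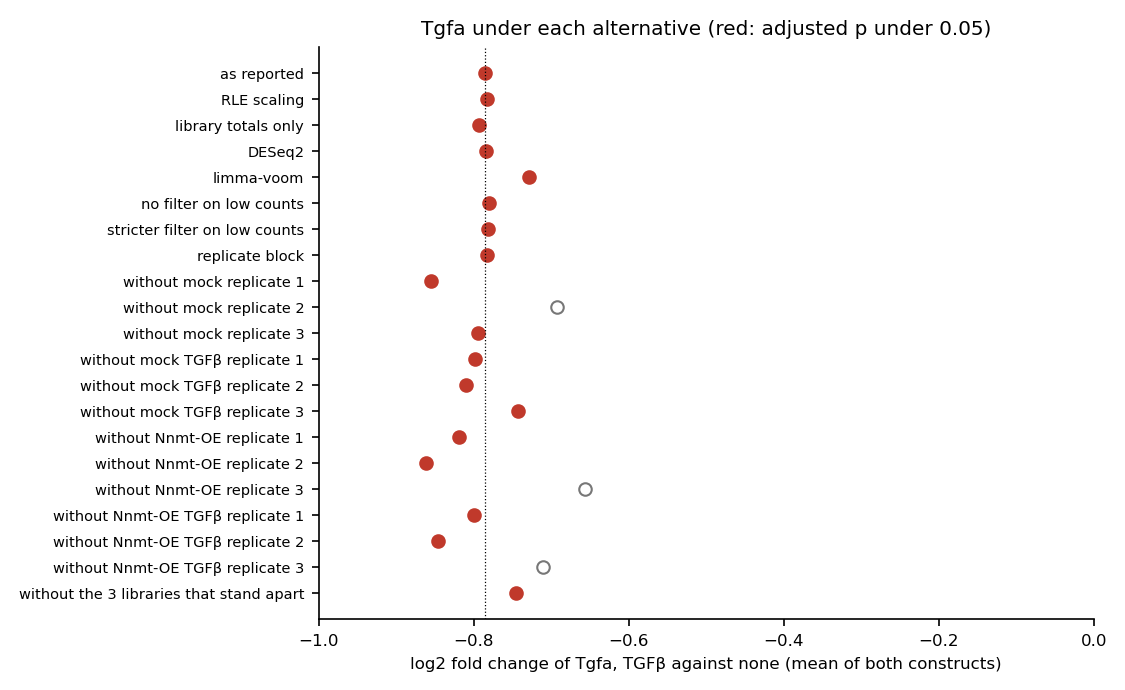
Log2 fold change of Tgfa with TGFβ, averaged over both constructs (horizontal axis), under the reported setting (top) and each alternative (rows), with red dots where the adjusted p was under 0.05. All values lie between -0.86 and -0.66, and the 3 open dots are fits that leave out 1 library.

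The genes whose pattern over the 12 libraries was most like that of Tgfa were Gm42699 (Pearson r = 0.94 of log2 CPM), 4930523C07Rik (0.93) and Mfge8 (0.93), out of 9124 genes at 10 CPM or more. Mfge8 encodes a secreted glycoprotein that bridges dying cells to phagocytes. All 3 share the libraries and the treatment with Tgfa, and none lies on its chromosome. Mfge8 averaged 709.6 CPM in mock, 606.5 in mock with TGFβ, 735.8 in labelled Nnmt-OE and 636.1 in labelled Nnmt-OE with TGFβ, so its difference was smaller than that of Tgfa.

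Across the members as a family, 1 of 8 passed in the averaged TGFβ comparison, where 5.08% of all genes tested passed (2.6% as lower), so that count is close to the background and describes Tgfa rather than the family. In mock cells alone 0 of 8 passed by edgeR, with 1 at an unadjusted p under 0.05, where 1.43% of all genes passed and 11.9% had such a p. In labelled Nnmt-OE cells alone 0 of 8 passed by edgeR, with 2 at an unadjusted p under 0.05, where 1.4% of all genes passed and 11.1% had such a p. Tgfa and Hbegf were the members at that level in the averaged comparison, where 16.6% of genes were. DESeq2 and limma-voom also called 0 members in each construct. Groups of 3 against 3 did not overlap for 2 members in mock cells and for 3 in labelled Nnmt-OE cells, where 16.4 and 17.6% of all genes were apart. The median log2 fold change of the 8 was -0.06 in the averaged comparison, against 0.00 over all genes.

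**Figure D3:**
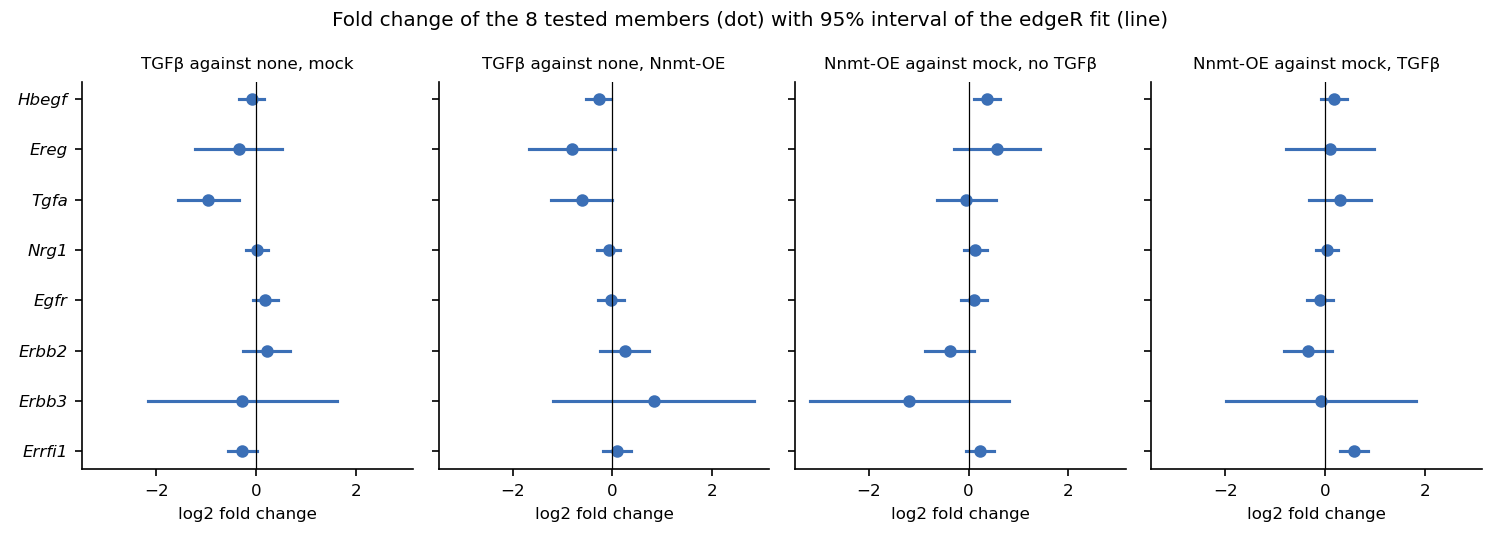
Log2 fold change (horizontal axis) of the 8 tested members in each of 4 comparisons, with the 95% interval of the edgeR fit as a line. The intervals of Tgfa (mock and labelled Nnmt-OE) and Hbegf (labelled Nnmt-OE) lie below 0 for TGFβ, those of Hbegf (without TGFβ) and Errfi1 (with TGFβ) lie above 0 between the constructs, all others drawn hold 0, and that of Erbb3 is the widest in each panel.

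Hbegf, the heparin-binding EGF-like growth factor that also acts as an early stress-induced ligand, stood at 98.6, 88.7 and 86.8 CPM in mock and 79.9, 75.3 and 102.4 CPM in mock with TGFβ. It stood at 129.0, 118.7 and 105.5 CPM in labelled Nnmt-OE and 93.7, 92.9 and 104.9 CPM in labelled Nnmt-OE with TGFβ. The untreated labelled Nnmt-OE libraries were the highest of the 12. They did not overlap the mock ones, as in 10.9% of genes for these groups. The tubular marker sum was also higher there (2015 to 2061 CPM against 1701 to 2005 CPM in mock), and its part was not tested. Aqp1, the largest part of that sum, averaged 1125 CPM there against 935 CPM in untreated mock. The 7 tested markers did not rise as a class: 3 lay above 0, and the median over all 7 was log2 -0.14. The log2 fold change of Hbegf between the constructs was 0.37 ± 0.13 (SE) without TGFβ, which did not pass over all genes (unadjusted p = 0.00599, edgeR adjusted p = 0.813). With TGFβ it was 0.18 ± 0.13 and the groups overlapped (edgeR adjusted p = 0.998). TGFβ gave -0.28 ± 0.13 in labelled Nnmt-OE cells, where all 3 treated libraries lay below the untreated ones (edgeR adjusted p = 0.378). In mock cells it gave -0.09 ± 0.13 (edgeR adjusted p = 0.85), and the groups overlapped. That overlap came from mock with TGFβ replicate 3 (102.4 CPM), a library that stood apart. The other treated mock libraries, at 79.9 and 75.3 CPM, lay below the untreated ones. With each library left out in turn, the mock value ran from -0.23 to -0.0039 and was never called.

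Nrg1, whose product neuregulin 1 binds ERBB3 and ERBB4, had the most tags of the family, 761 to 1098 per library. It averaged 148.0 ± 12.0 CPM in mock, 149.9 ± 17.2 in mock with TGFβ, 162.4 ± 20.0 in labelled Nnmt-OE and 154.4 ± 12.3 in labelled Nnmt-OE with TGFβ (SD, n = 3). Its highest library, at 179.4 CPM, was only 1.36 times its lowest, and all neighbouring groups overlapped. The averaged TGFβ comparison gave a fold with a 95% interval of 0.88 to 1.097, and the averaged construct comparison one of 0.95 to 1.19 (edgeR adjusted p = 0.92 and 0.906). Nrg1 gives many transcript forms, and a tag near the 3′ end does not separate forms that share that end.

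Ereg, which encodes epiregulin, was low, with 22 to 62 reads per library. It measured 4.62, 8.48 and 5.39 CPM in mock, 4.203, 5.10 and 5.13 in mock with TGFβ, 10.5, 5.43 and 11.3 in labelled Nnmt-OE, and 5.29, 5.54 and 4.59 in labelled Nnmt-OE with TGFβ. Mock replicate 2 and labelled Nnmt-OE replicates 1 and 3 were high, all of them untreated, and the other 9 libraries lay between 4.203 and 5.54 CPM. The averaged TGFβ comparison gave -0.58 ± 0.30 (log2 ± SE, edgeR adjusted p = 0.336), and the construct comparison without TGFβ gave 0.56 ± 0.42 (edgeR adjusted p = 0.929).

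Areg, which encodes amphiregulin, had 1 read, in mock with TGFβ replicate 2, among 71112817 reads of all 12 libraries. A count of 0 in the other 11 libraries allows a level of up to 0.420 to 0.636 CPM, depending on depth (3 counts, counting error only). Areg was thus not detectable at this depth in those libraries, and no comparison could be made. Of the ligands outside the 9 members, Nrg2 (6.87 to 13.9 CPM) and Egf (1.61 to 12.6 CPM) passed the filter on low counts and Btc, Epgn, Nrg3 and Nrg4 did not, Nrg3 with no read at all. Neither Nrg2 nor Egf passed the test in any of 7 comparisons by edgeR. Egf averaged 9.1 ± 4.2 CPM in untreated mock cells against 4.6 ± 3.3 with the construct (log2 -0.99 ± 0.49 SE, edgeR adjusted p = 0.845).

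Tags of this library type are about 1 per transcript and are not scaled by length, so the make-up of the ligand pool can be read as shares of tags. Of all tags from 11 EGF family ligand genes, Nrg1 held 52.3 ± 2.1% in mock and 56.6 ± 1.8% in mock with TGFβ, and 50.3 ± 3.0% and 54.4 ± 1.9% in the labelled Nnmt-OE groups (SD, n = 3). Hbegf held 32.4 ± 3.0, 32.3 ± 2.8, 36.7 ± 4.6 and 34.3 ± 1.5% in the same order. Tgfa held 5.64 ± 1.05% in mock and 3.14 ± 0.62% in mock with TGFβ, and 4.79 ± 1.20% and 3.58 ± 0.79% in labelled Nnmt-OE. The 11 ligand genes summed to 282.7 ± 15.9 CPM in mock, 264.9 ± 29.9 in mock with TGFβ, 322.6 ± 26.2 in labelled Nnmt-OE and 283.4 ± 14.2 in labelled Nnmt-OE with TGFβ. Nrg1 and Hbegf thus made up most of the pool in every group, and the treated and untreated sums overlapped in both constructs.

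Egfr, a receptor for Tgfa and Hbegf, stayed within a range of 1.37-fold over the 12 libraries. It measured 92.4, 80.8 and 79.1 CPM in mock, 86.9, 93.4 and 106.9 in mock with TGFβ, 93.1, 81.9 and 97.5 in labelled Nnmt-OE, and 96.2, 78.1 and 93.8 in labelled Nnmt-OE with TGFβ. All neighbouring groups overlapped. The 95% interval of its fold was 0.93 to 1.20 for TGFβ and 0.89 to 1.14 for the construct, each averaged (edgeR adjusted p = 0.726 and 0.998). A rise of Egfr beyond 1.20-fold, or a fall below 0.89 of the control level, lies outside both averaged intervals. Those of the single comparisons were wider and do not exclude such changes. For TGFβ they were 0.95 to 1.36 in mock and 0.82 to 1.18 in labelled Nnmt-OE cells. For the construct they were 0.90 to 1.29 without TGFβ and 0.78 to 1.12 with it.

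Erbb2, the ligandless partner receptor, measured 15.8, 26.3 and 22.6 CPM in mock, 24.0, 22.5 and 28.3 in mock with TGFβ, 17.9, 18.9 and 12.8 in labelled Nnmt-OE, and 17.7 to 23.4 in labelled Nnmt-OE with TGFβ. The labelled Nnmt-OE libraries were mostly the lower ones, but mock replicate 1 and labelled Nnmt-OE with TGFβ replicate 3 crossed over. Both are among the 3 libraries that stood apart. Without those 3, mock libraries measured 22.5 to 26.3 CPM and labelled Nnmt-OE ones 12.8 to 18.9 CPM. The share of all genes apart in this way was not computed. The averaged construct comparison gave -0.36 ± 0.17 (log2 ± SE, unadjusted p = 0.0411, edgeR adjusted p = 0.774). Settings that did not leave out 1 library gave log2 values from -0.47 to -0.34, and none called Erbb2. Exons of Erbb2 overlap those of Mien1 on the opposite strand in the GENCODE M21 annotation, and the labels do not say whether counting used strand, so Erbb2 values are uncertain. Exons of Tgfa, Ereg and Nrg1 overlap opposite-strand genes as well: Gm43917 at Tgfa had 0 reads and Gm19610 at Ereg 2 reads in all libraries, while Gm26578 at Nrg1 was not analysed here. Reads of Tgfa, Ereg and Nrg1 thus carry the same limit. Mien1 measured 64.0 to 97.1 CPM and gave -0.07 ± 0.10 in the same comparison (edgeR adjusted p = 0.942).

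Erbb3, the neuregulin receptor with an impaired kinase, was near the limit of detection, with 1 to 32 reads per library. It measured 1.60, 2.76 and 2.12 CPM in mock, 0.140, 4.41 and 0.707 in mock with TGFβ, 0.179, 1.32 and 1.28 in labelled Nnmt-OE, and 1.98, 1.38 and 1.67 in labelled Nnmt-OE with TGFβ. A single library, mock with TGFβ replicate 2, held 32 of the 37 reads of its group. The 95% interval of the averaged TGFβ fold reached from 0.47 to 3.14 (edgeR adjusted p = 0.902). The sign of that value turned without this library (log2 -0.75, against 0.28 with it), so no direction can be read for Erbb3. Erbb4, the fourth receptor, measured 13.2 to 24.0 CPM and did not pass in any of the 7 comparisons by edgeR, with group means of 17.0 ± 1.5, 19.7 ± 4.9, 20.8 ± 5.3 and 16.0 ± 2.5 CPM in the order used above.

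Errfi1, the inhibitor that EGFR signalling itself induces, was the member with the smallest p between the constructs, with TGFβ and averaged over treatments. With TGFβ it measured 47.9, 61.0 and 56.6 CPM in mock libraries, against 84.3, 81.7 and 83.4 CPM in labelled Nnmt-OE ones. These groups did not overlap, as in 10.2% of genes, and all 3 labelled Nnmt-OE libraries lay within 2.6 CPM of each other. The fold was 1.51 (log2 0.59 ± 0.14 SE, 95% interval of the fold 1.24 to 1.83). Its unadjusted p of 0.000117 was the fourth smallest of 12897 genes, but over all genes it did not pass (edgeR adjusted p = 0.376), while 3 genes did, or 0.0233% of all. Without TGFβ it measured 73.4, 64.5 and 62.3 CPM in mock libraries, against 69.7, 72.5 and 90.9 CPM in labelled Nnmt-OE ones, which overlapped (log2 0.22 ± 0.14, edgeR adjusted p = 0.881).

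Averaged over both treatments, Errfi1 gave 0.41 ± 0.10 (log2 ± SE) between the constructs, from 60.9 to 80.4 CPM, and did not pass (edgeR adjusted p = 0.123). DESeq2 called it (adjusted p = 0.0302), and over all alternatives the adjusted p ran from 0.0302 to 0.573, the highest without labelled Nnmt-OE replicate 3. In this comparison 0 of 8 members passed by edgeR and 3 had an unadjusted p under 0.05, namely Errfi1, Hbegf and Erbb2, where 0.0698% of all genes passed and 6.23% had such a p. No member had all 6 libraries of a construct apart, as 0.225% of genes did. DESeq2 called 1 and limma-voom 0. Without TGFβ alone and with TGFβ alone, edgeR, DESeq2 and limma-voom each called 0 members, with 1 member at an unadjusted edgeR p under 0.05 in each (Hbegf and Errfi1), where 0.0388 and 0.0233% of all genes passed and 5.84 and 4.46% had such a p.

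TGFβ shifted Errfi1 by -0.27 ± 0.14 (log2 ± SE) in mock cells, where all treated libraries lay below the untreated ones (edgeR adjusted p = 0.443), and by 0.10 ± 0.14 in labelled Nnmt-OE cells, where they overlapped (edgeR adjusted p = 0.869). The difference between those effects was 0.37 ± 0.20 (unadjusted p = 0.0634, edgeR adjusted p = 0.999). Over all genes the interaction called 0 by edgeR, DESeq2 and limma-voom, with 501 genes (3.88%) at an unadjusted p under 0.05 by edgeR and 0 of the 8 members among them. The order of the group means was mock with TGFβ (55.1 ± 6.6 CPM), mock (66.7 ± 5.9), labelled Nnmt-OE (77.7 ± 11.5) and labelled Nnmt-OE with TGFβ (83.1 ± 1.3). The upper 3 groups overlapped with their neighbours in that order.

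The other genes of the pathway were followed from receptor to nucleus. Among 11 tested sheddases, iRhoms and related genes, Timp3, whose product inhibits ADAM17, rose with TGFβ averaged over the constructs, and 10 did not pass, a share near the 5.08% of all genes called. Timp3 measured 411.0 to 496.2 CPM in untreated and 523.4 to 661.0 CPM in TGFβ libraries (log2 0.35 ± 0.06 SE, edgeR adjusted p = 6.71e-05). Adam17, the main sheddase of Tgfa, Hbegf and Areg, averaged 71.6 CPM over the mock libraries and 56.5 CPM over those with the construct (log2 -0.34 ± 0.10, edgeR adjusted p = 0.411), and 0 of the 11 passed between the constructs by edgeR, DESeq2 or limma-voom, with 2 at an unadjusted p under 0.05, as 6.23% of all genes were.

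Of 22 tested negative regulators and trafficking genes, 0 passed with TGFβ averaged over the constructs by edgeR, DESeq2 or limma-voom, with 3 at an unadjusted p under 0.05, as 16.6% of all genes were. The ubiquitin ligase gene Cbl, which marks EGFR for degradation, stood at 0.25 ± 0.09 (log2 ± SE, edgeR adjusted p = 0.139), and the scaffold gene Erbin at -0.20 ± 0.09 (0.232). Of 20 genes of the RAS-ERK relay, which carries the receptor signal to the nucleus, 0 passed with TGFβ by any of these tools, with 3 at an unadjusted p under 0.05 by edgeR, against the same 16.6%. The phosphatase gene Ptpn11 stood at 0.24 ± 0.08 (edgeR adjusted p = 0.0806) and the kinase gene Mapk3 at -0.23 ± 0.09 (0.147). Of 13 PI3K-AKT genes 1 fell, Pik3r1, the regulatory subunit of PI3-kinase (-0.29 ± 0.08, edgeR adjusted p = 0.0186), and 12 did not pass, a share near the 5.08% of all genes called. With each library left out in turn, Pik3r1 passed in 6 of 12 fits (largest adjusted p 0.0802). It ended without mock replicate 2, without mock with TGFβ replicate 1, without labelled Nnmt-OE replicate 1 or 3, or without labelled Nnmt-OE with TGFβ replicate 1 or 2.

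Between the constructs averaged over treatments, edgeR, DESeq2 and limma-voom called 0 of the 22 regulators, 0 of the 20 relay genes and 0 of the 13 PI3K-AKT genes, with 0, 0 and 2 at an unadjusted edgeR p under 0.05, against 6.23% of all genes. Their median log2 fold changes were 0.03, -0.02 and 0.12, against 0.00 over all genes.

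Genes listed as feedback and target genes of ERK were called in both directions. They were measured as RNA, and ERK activity was not measured. Of 25 tested with TGFβ averaged over the constructs, 3 fell, 2 rose and 20 did not pass, with a median log2 fold change of -0.12 and 9 at an unadjusted p under 0.05, against 5.08% of all genes called in either direction and 16.6% at such a p. These counts are a description, since earlier results of these data were known when the list was written. Dusp6, the phosphatase that inactivates ERK, fell from 158.1 to 115.2 CPM (log2 -0.45 ± 0.08 SE, edgeR adjusted p = 0.00016). In labelled Nnmt-OE cells Dusp6 measured 180.8, 189.8 and 167.5 CPM untreated and 132.6, 127.6 and 114.5 CPM with TGFβ, and in mock cells 143.0, 136.4 and 130.9 against 103.1, 119.6 and 93.7 CPM. Treated libraries lay below untreated ones in both constructs, and 4.74% of all genes were apart in the same direction in both. Within each construct, Dusp6 passed in labelled Nnmt-OE cells (edgeR adjusted p = 0.00539) but not in mock cells (0.0837). The zinc-finger factor gene Egr1 fell by 0.61 ± 0.08 (log2 ± SE) and the cyclin gene Ccnd1 by 0.30 ± 0.06 (edgeR adjusted p = 2.25e-07 and 0.000592). The urokinase receptor gene Plaur rose by 0.70 ± 0.19 and the immediate-early gene Ier3 by 0.31 ± 0.09 (edgeR adjusted p = 0.0204 and 0.0238).

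The 3 falls held in each of 12 fits without 1 library and without the 3 libraries that stand apart, and the 2 rises did not. Plaur ended without mock replicate 1 or mock with TGFβ replicate 1 (highest adjusted p 0.0769), Ier3 without mock replicate 1 or 3, mock with TGFβ replicate 1, labelled Nnmt-OE replicate 3 or labelled Nnmt-OE with TGFβ replicate 1 (highest 0.0897), and both without the 3 libraries that stand apart (0.0858 and 0.0781).

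Between the constructs, averaged over treatments, 4 of the 25 ERK targets rose, 0 fell and 21 did not pass, where 9 genes passed in all, or 0.0698%. An unadjusted p under 0.05 was found for 11 of the 25, against 6.23% of all genes. Positive values were found for 22 of the 25, with a median of 0.38 against 0.00 over all genes. Since Egr1, Dusp1, Ier3 and Junb were known from earlier results of these data when the list was written, the count is a description. Egr1 rose by 1.17 ± 0.08, Dusp1, a phosphatase of MAP kinases, by 1.13 ± 0.14, Ier3 by 0.64 ± 0.09 and the AP-1 subunit gene Junb by 0.43 ± 0.09 (log2 ± SE, edgeR adjusted p = 3.21e-14, 4.52e-06, 1.91e-05 and 0.028). Egr1 measured 122.0, 110.3 and 108.7 CPM in mock, 76.8, 75.6 and 80.6 in mock with TGFβ, 279.8, 267.6 and 252.4 in labelled Nnmt-OE, and 149.1, 163.2 and 188.3 in labelled Nnmt-OE with TGFβ, so that no group overlapped another. With each library left out in turn, Junb passed in 3 of 12 fits, those without mock replicate 3, labelled Nnmt-OE replicate 2 or labelled Nnmt-OE with TGFβ replicate 1 (largest adjusted p 0.163), and ended without the 3 libraries that stand apart (0.234). Dusp6 stood at 0.32 ± 0.08 (0.123) and Ier2 at 0.91 ± 0.21 (0.0813), while the feedback inhibitor genes Spry1 and Spry2 stood at 0.09 ± 0.10 and 0.07 ± 0.19 (0.931 and 0.979).

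**Figure D4:**
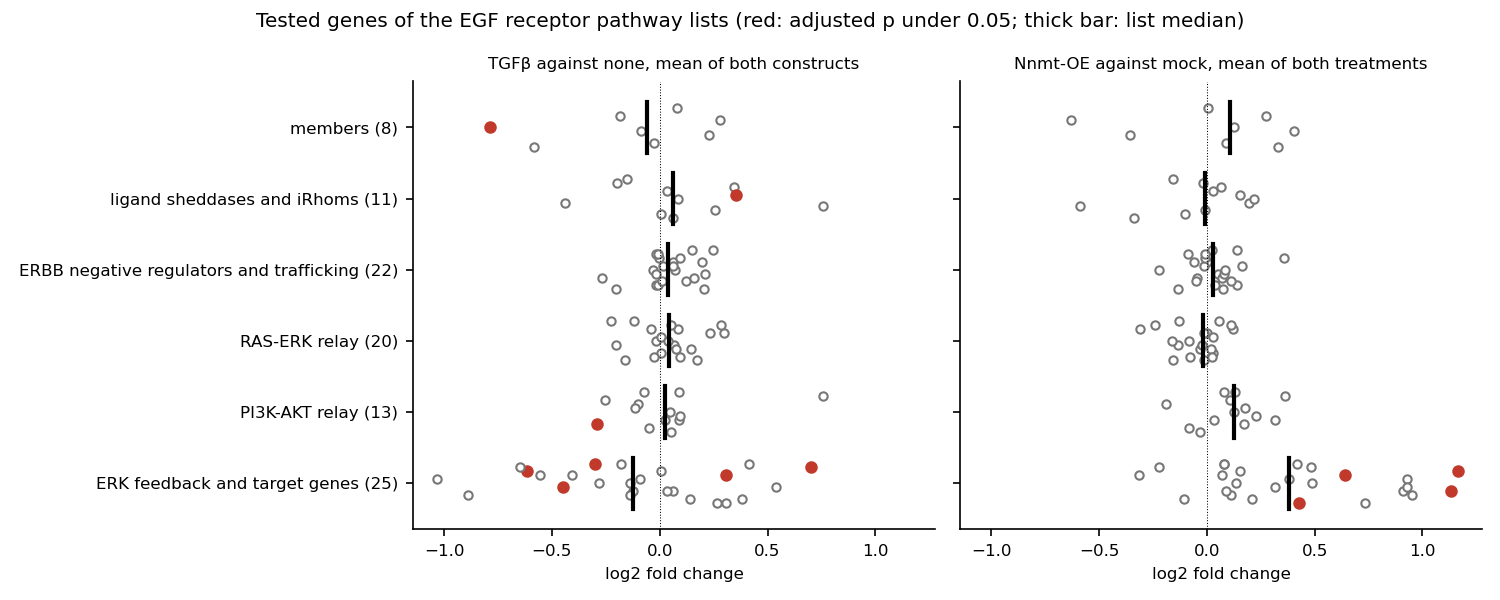
Log2 fold change (horizontal axis) of the tested genes of each pathway list (rows, number tested in brackets), for TGFβ averaged over constructs (left) and for the construct averaged over treatments (right), with red dots for genes called over all genes tested and a thick bar for the list median. The ERK target list has its median at -0.12 on the left and at 0.38 on the right, while the other lists drawn have medians between -0.06 and 0.12.

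A further list held 8 kidney injury genes chosen as responsive to EGF receptor signalling, a response that was not tested in these cells. With TGFβ averaged over the constructs, 3 of the 8 rose, 2 fell and 3 did not pass, where 5.08% of all genes passed in either direction. The list was written with earlier results of these data known, so this count and those between the constructs are descriptions. Havcr1, the tubular injury marker KIM-1, rose by 0.84 ± 0.15, the matricellular gene Ccn2 by 0.96 ± 0.13 and the chemokine gene Ccl2 by 0.40 ± 0.11 (log2 ± SE, edgeR adjusted p = 0.000275, 0.00132 and 0.0238). Sox9, a factor of regenerating tubules, fell by 0.58 ± 0.11 and Spp1, which encodes osteopontin, by 0.26 ± 0.06 (edgeR adjusted p = 0.000687 and 0.00469). Ccl2 ended without mock replicate 1, mock with TGFβ replicate 2, labelled Nnmt-OE replicate 3 or labelled Nnmt-OE with TGFβ replicate 1 or 2 (largest adjusted p 0.138). Between the constructs edgeR called 0 of the 8, while DESeq2 and limma-voom called 1 each. An unadjusted edgeR p under 0.05 was found for 5 of the 8, against 6.23% of all genes: Ccn2 and Ccl2 had positive values and Lcn2, Vcam1 and Spp1 negative ones. The smallest adjusted p among them were those of Ccn2 (0.54 ± 0.13, edgeR adjusted p = 0.395) and Vcam1, an adhesion molecule gene (-0.31 ± 0.10, 0.472).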

How the data were processed

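RNA was measured in 12 libraries of mouse tubular epithelial cells, made from 100 ng of RNA with a 3′ tag kit (QuantSeq forward), per the labels' protocols. The authors deposited unnormalised read counts by gene, as a single table. STAR and HTSeq are named in the submitters' processing notes without versions, with the human build GRCh38, while the identifiers are mouse Ensembl ones; which mouse build, annotation release and strand setting were used is not given in the sources used here. The 5 HTSeq summary lines were removed (26.4 to 28.8% of reads outside genes, 0.603 to 0.679% ambiguous). Symbols came from GENCODE M21 names, which matched 55141 of 55487 identifiers, and promoter windows from RefSeq.

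Titles gave the groups. A single model with 4 group means was fitted to the 12 libraries in edgeR 4.0.16 (R 4.3.3), with filterByExpr (minimum count 10, minimum total 15), TMM scaling (factors 0.981 to 1.01), robust quasi-likelihood tests and Benjamini-Hochberg adjustment over the 12897 genes tested, at 0.05. A gene is called where its adjusted p is under 0.05. The 7 contrasts were TGFβ in each construct, the construct with and without TGFβ, the interaction, and the averages of the TGFβ and of the construct effects (6 libraries against 6). CPM are scaled by TMM, and SE and 95% intervals are those of the fit. Replicates differed by more than sampling noise (chi-square per degree of freedom 4.85 to 17.4).

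The members and gene lists were chosen with earlier results of these data known. Beyond the 9 members, the text names list genes that were called (at most 4 per list and contrast), or up to 2 with the smallest adjusted p where fewer than 2 were; Ier2, Spry1, Spry2, Dusp6 between the constructs, Egf and Erbb4 were named after their values were seen. The 3 promoters were picked after the values were seen. Genes alike to a called member were the 3 at 10 mean CPM or more with the highest Pearson correlation of log2 CPM. Alternatives were DESeq2 1.42.0, limma-voom (limma 3.58.1), scaling by RLE or by totals alone, no filter on low counts, a stricter one (50 counts over all libraries, 1 CPM in at least 3), a replicate block, each library left out and only the groups compared. Leaving out all 3 libraries that stood apart, and all settings for the lists, were added after the data were seen.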

Additional observations from a re-analysis of the deposited data

How the results depend on the processing

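Of the members, Tgfa with TGFβ averaged over constructs kept its call in 8 of 8 settings that did not leave out 1 library (log2 -0.79 to -0.73, adjusted p 0.00716 to 0.0455). Without 1 library the count of members called there was 0 to 1, and DESeq2 called 1 member, Errfi1, for the averaged construct effect, where edgeR called 0. Over all genes, DESeq2 called 306 genes for TGFβ in mock (edgeR 184), 295 for TGFβ in labelled Nnmt-OE (edgeR 180), and 26 for the averaged construct effect (edgeR 9). No filter gave 13 genes for the construct without TGFβ (5 with it) and 19 for the averaged construct effect. Only the groups compared gave 92 genes for TGFβ in mock, 351 for TGFβ in labelled Nnmt-OE and 3 for the construct without TGFβ. Without 1 library these counts ran from 98 to 188 (TGFβ in mock), 97 to 305 (TGFβ in labelled Nnmt-OE), 3 to 6 and 1 to 3 (construct without and with TGFβ) and 5 to 9 (averaged construct effect). The cause of these differences was not tested.

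Signs turned only for member values that no setting called. By limma-voom Erbb3 gave 0.93 between the constructs with TGFβ and -0.070 for averaged TGFβ, and Erbb2 gave -0.0074 for the interaction. Without the 3 libraries that stand apart, TGFβ in mock gave -0.11 for Nrg1 and -0.069 for Erbb2. Without 1 library, TGFβ in mock ran from -0.058 to 0.10 for Nrg1 and -2.34 to 0.27 for Erbb3; TGFβ in labelled Nnmt-OE from -0.17 to 0.0039 for Nrg1 and -0.090 to 0.065 for Egfr; the construct without TGFβ from -0.30 to 0.14 for Tgfa; the construct with TGFβ from -0.042 to 0.12 for Nrg1 and -0.62 to 1.98 for Erbb3; the interaction from -0.13 to 0.21 for Erbb2; averaged TGFβ from -0.072 to 0.015 for Nrg1 and -0.75 to 0.55 for Erbb3; and the averaged construct effect from -0.0018 to 0.22 for Tgfa, -0.027 to 0.049 for Egfr and -0.90 to 0.40 for Erbb3.

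The titles' replicate numbers did not pair the samples: 2 of 18 same-numbered pairs had deviations correlated above 0.1 (-0.21 to 0.15), and 5 of 12 libraries correlated best with their own number. With the number as a replicate block Tgfa stood at -0.78 (adjusted p = 0.0291), and Erbb3 between the constructs with TGFβ turned to 0.55. Depth limits Areg, Erbb3 and Ereg most, with 1, 117 and 439 reads in all.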
